A study of Homo sapiens with 24 samples.

Results

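The cholesterol module comprised 29 genes, chosen by symbol from what is known of the pathway and matched by Ensembl identifier in count tables of 61860 gene rows. It held 18 enzymes of synthesis (ACAT2, HMGCS1, MVK, PMVK, MVD, IDI1, FDPS, FDFT1, SQLE, LSS, CYP51A1, TM7SF2, MSMO1, NSDHL, HSD17B7, EBP, SC5D and DHCR7), 4 genes of the SREBP2 control system (SREBF2, SCAP, INSIG1 and INSIG2) and 7 genes of uptake, movement, storage and export (SCARB1, MYLIP, NPC1, STARD4, SOAT1, ABCA1 and ABCG1). Every one of the 29 had exactly 1 row in each table and passed the filter on low counts in all 4 experiments, so none was lost from any comparison. The rule uses no measured value, but the members were chosen with earlier results of these data known.

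RNA-seq was performed on OE33, a human line of esophageal adenocarcinoma cells, in 4 experiments with 3 treated and 3 control libraries each (24 libraries). In the first, OE33 tumors were grown for 21 days under the skin of male BALB/c-nu mice, bought at 4 weeks of age, that had eaten a high-fat diet (HFD, 35% fat) or a normal diet (ND, 4.3% fat) for 8 weeks before the cells were injected. Each group stayed on its diet while the tumors grew. HFD mice were used only if they weighed clearly more than the ND mice. These hosts lack mature T cells and keep the rest of their immune system. Next, cultured OE33 cells received a plasmid for HA-tagged TRIM15, an E3 ubiquitin ligase (HA-TRIM15), or the empty vector (EV) for 48 h. In the remaining experiments, cultured cells carried a short hairpin RNA against the transcription factor YY2 (shYY2) or against FOXRED1, a mitochondrial assembly factor of respiratory complex I (shFOXRED1), for 72 h, each with its own shControl. The labels do not say which hairpin was sequenced, whether the cells were 1 clone or a pool, or whether replicates came from separate cultures or mice, so p-values measure the spread between these libraries only.

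Animal cells build cholesterol from acetyl-CoA by way of mevalonate, farnesyl diphosphate, squalene and lanosterol, and finish it in a series of sterol steps in the endoplasmic reticulum. The supply is set by SREBP2, the product of SREBF2: SCAP escorts it to the Golgi for activation when membrane sterol is low, and INSIG1 and INSIG2 hold SCAP back when sterol is plentiful. Active SREBP2 binds sterol regulatory elements in promoters of synthesis genes, usually together with the CCAAT-binding factor NF-Y. Excess cholesterol is esterified by SOAT1 or exported by ABCA1 and ABCG1, which, with MYLIP, are known targets of the liver X receptors, the sensors of oxysterols. Tumor cells use cholesterol for new membrane and for signaling domains within it.

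Total counts ranged from 14299807 to 45994561 per library. TRIM15 was counted 14, 12 and 24 times in the HFD xenografts and 1, 0 and 0 times in the ND xenografts, and it was counted 111, 130 and 181 times with HA-TRIM15 and not at all with EV. YY2 fell by 1.82 on the log2 scale with shYY2 (adjusted p = 1.3e-06), and FOXRED1 fell by 0.78 with shFOXRED1 (adjusted p = 4.06e-05). The 8 epithelial markers summed to between 11264 and 17369.7 CPM (counts scaled to library size) per library, while none of the leukocyte, endothelial, adipocyte and hepatocyte lists summed to more than 4.16 CPM. Of the 6 fibroblast markers, COL1A1 alone passed 1 CPM. Libraries of a group differed by more than sampling noise (chi-square per gene 1.42 to 7.1), most of all replicate 3 of shFOXRED1, which lay at 7.1 and 6.22 from the other two. In bulk RNA, fewer cells of a type and less RNA per cell cannot be told apart.

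The 4 experiments moved the module in different ways (plot of the log2 fold changes of all 29 genes). With shYY2, most of the synthesis pathway fell and the exporters rose. With HA-TRIM15 a smaller set of synthesis genes rose and none fell. In the HFD xenografts the pathway was split, with some enzymes higher and others lower, and with shFOXRED1 most synthesis genes were not called. A gene was called when its adjusted p in edgeR's quasi-likelihood test, corrected over all genes tested, was under 0.05. Values after ± are standard errors of the log2 fold change.

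**Figure D1:**
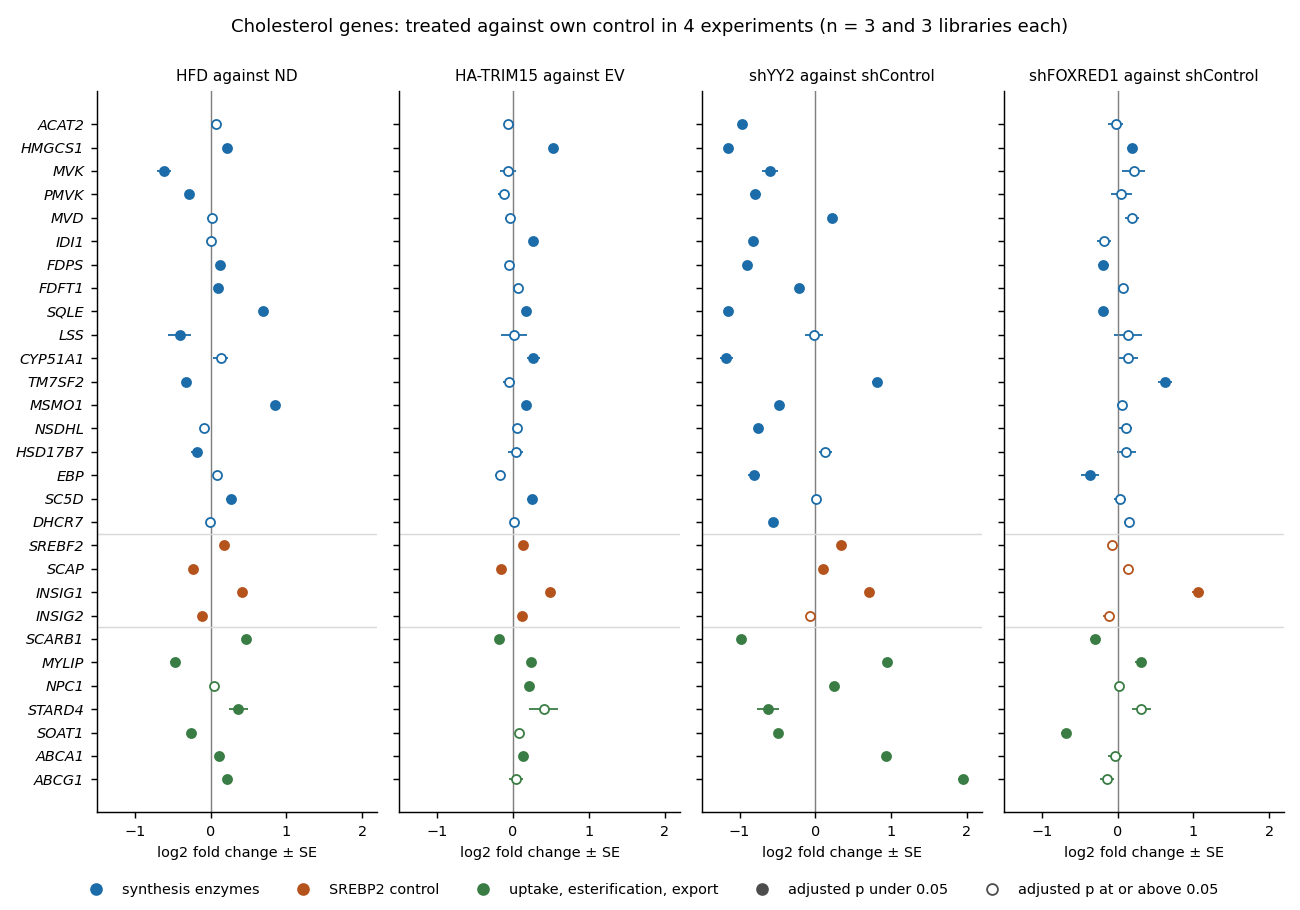
Each panel shows 1 experiment and each row 1 gene, in pathway order, with the log2 fold change of treated against control libraries on the x axis and its standard error as the bar (n = 3 and 3). Filled points had an adjusted p under 0.05. With shYY2, 13 of the 18 synthesis enzymes lie to the left of 0 as filled points and ABCG1 lies farthest to the right at 1.94.

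Among the control libraries of the YY2 experiment, the level per length of transcript was highest for NSDHL (29.5 CPM per kb of merged exons), SQLE (27.5) and DHCR7 (27.1) and lowest for LSS (0.793), STARD4 (0.952) and MVK (1.58). In all 4 sets of controls, LSS, STARD4 and MVK were among the lowest 4 of the 29. SREBF2 was measured at 19.8 CPM per kb in the ND xenografts and at 24.2 in the shControl cells of the YY2 experiment. The fewest counts behind any member were the 51 counts of STARD4 in 1 library of the TRIM15 experiment and in 1 of the YY2 experiment.

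The xenografts address whether the diet of the host changed the tumor cells. With HFD, 6 of the 18 synthesis enzymes were called higher, 5 were called lower and 7 were not called, against 25.6% of all genes tested called higher and 23.9% called lower (49.5% called in all). The median log2 fold change of the 18 was 0.042, against -0.012 over all 17012 genes tested. The genes that rose were spread from HMGCS1 near the start to SC5D near the end, and both mevalonate kinases, MVK and PMVK, were among those that fell.

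MSMO1, a sterol methyl oxidase, was measured at 65.0, 63.7 and 66.3 CPM in the HFD libraries and 37.3, 35.03 and 36.7 CPM in the ND libraries. Its log2 fold change was 0.85 ± 0.043 (SE, adjusted p = 1.62e-10). SQLE, the squalene epoxidase and a rate-limiting step of the pathway, was measured at 82.7, 81.7 and 78.8 CPM in the HFD libraries and 49.3, 49.8 and 50.9 CPM in the ND libraries, a change of 0.70 ± 0.039 (SE, adjusted p = 5.4e-10). For both genes each HFD xenograft lay above each ND xenograft, a separation of groups, in either direction, seen in 56.2% of the genes tested. HMGCS1, which makes HMG-CoA, and the desaturase SC5D rose less, by 0.21 ± 0.047 and 0.26 ± 0.058 (SE), and FDPS and FDFT1, which make farnesyl diphosphate and squalene, by 0.12 and 0.094.

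MVK, which phosphorylates mevalonate, went the other way, with 5.75, 6.77 and 6.25 CPM in the HFD libraries and 9.11, 9.92 and 9.49 CPM in the ND libraries. The groups did not overlap, and the log2 fold change was -0.61 ± 0.091 (SE, adjusted p = 3.38e-05). PMVK, the next kinase, changed by -0.29 ± 0.057, TM7SF2, a sterol reductase, by -0.33 ± 0.052 and HSD17B7, a ketosteroid reductase, by -0.18 ± 0.074. LSS, which closes squalene epoxide into lanosterol, was measured at 3.6, 4.48 and 4.46 CPM in the HFD libraries and 5.36, 6.7 and 4.19 CPM in the ND libraries. Here the groups overlapped, although the gene was called (-0.41 ± 0.15, adjusted p = 0.0319). ACAT2, MVD, IDI1, CYP51A1, NSDHL, EBP and DHCR7 were not called, with log2 fold changes between -0.082 and 0.13.

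All 4 control genes were called in the xenografts, 2 higher and 2 lower, against 49.5% of all genes tested. INSIG1 was measured at 62.0, 61.1 and 64.6 CPM in the HFD libraries and 46.2, 45.6 and 49.5 CPM in the ND libraries, with no overlap and a log2 fold change of 0.42 ± 0.044 (SE, adjusted p = 8.47e-07). SREBF2 rose by 0.17 ± 0.041, while SCAP changed by -0.24 ± 0.042 and INSIG2 by -0.11 ± 0.044.

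Of the 7 transport genes, 4 were higher and 2 lower with HFD, where 49.5% of all genes tested were called. SCARB1, the receptor that takes up cholesteryl ester from high-density lipoprotein, was measured at 63.5, 60.5 and 61.6 CPM in the HFD libraries and 44.4, 47.5 and 42.0 CPM in the ND libraries, a log2 fold change of 0.46 ± 0.048 (SE, adjusted p = 6.02e-07). MYLIP, a ubiquitin ligase that sends lipoprotein receptors to degradation, was measured at 45.2, 42.4 and 51.0 CPM in the HFD libraries and 65.1, 61.5 and 68.3 CPM in the ND libraries, a change of -0.47 ± 0.059 (SE, adjusted p = 5.58e-06). The groups did not overlap for either gene. STARD4, a small sterol carrier of the cytosol, was measured at 4.65, 4.86 and 5.41 CPM in the HFD libraries and 4.2, 4.04 and 3.3 CPM in the ND libraries, also without overlap (0.37 ± 0.12, adjusted p = 0.0178). The exporters ABCG1 and ABCA1 rose by 0.21 ± 0.055 and 0.11 ± 0.036, SOAT1 changed by -0.26 ± 0.04, and NPC1, which moves cholesterol out of lysosomes, was not called (0.039).

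Of 25 further genes of the pathway, 22 were tested in the xenografts, of which 9 were higher and 6 lower (49.5% of all genes called). Those that changed most were GRAMD1B, a carrier of cholesterol from the plasma membrane (-0.76 ± 0.15), GGPS1, which makes geranylgeranyl diphosphate (0.75 ± 0.073), CYP27A1, a sterol hydroxylase of mitochondria (0.58 ± 0.14), and GRAMD1C, a relative of GRAMD1B (-0.49 ± 0.065). COL1A1 was measured at a mean of 25.5 CPM with HFD and 31.6 CPM with ND, and the part of host reads in any of these values was not tested. Leaving out 1 library ended the calls of FDPS (HFD replicate 1, ND replicates 1 and 3, adjusted p up to 0.234), FDFT1 (HFD replicates 1 and 2, ND replicates 1 and 3, 0.211) and LSS (HFD replicate 1, ND replicates 1 and 2, 0.304). It also ended those of HSD17B7 (each library but HFD replicate 3, 0.181), INSIG2 (each but ND replicate 2, 0.245), STARD4 (HFD replicate 3 and ND replicate 3, 0.11) and ABCA1 (HFD replicates 1 and 3, 0.0825).

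Overexpression of TRIM15 in culture asks what the ligase does in the tumor cells alone. With HA-TRIM15, 6 synthesis genes rose, none fell and 12 were not called, against 12.5% of all genes called higher and 9.53% called lower (22.1% in all). The count of 0 lower refers to edgeR's test. At an unadjusted p under 0.05, 1 gene (EBP) was lower, DESeq2 called none lower, and without HA-TRIM15 replicate 1 or 2 the test called 1 gene lower. The median log2 fold change of the 18 was 0.026, against -0.0065 over the 15745 genes tested.

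HMGCS1 rose most, from 70.7, 71.1 and 71.3 CPM in the EV libraries to 99.8, 108 and 101 CPM in the HA-TRIM15 libraries, a log2 fold change of 0.53 ± 0.04 (SE, adjusted p = 3.52e-07). IDI1, which isomerizes isopentenyl diphosphate, was measured at 42.3, 44.1 and 44.4 CPM in the HA-TRIM15 libraries and 35.9, 36.0 and 36.8 CPM in the EV libraries (0.26 ± 0.046, adjusted p = 0.000978). Both genes act on the way to squalene. The lanosterol demethylase CYP51A1 was measured at 16.0, 13.8 and 13.6 CPM in the HA-TRIM15 libraries and 11.4, 12.5 and 12.3 CPM in the EV libraries (0.27 ± 0.085, adjusted p = 0.0343). SC5D was measured at 34.7, 31.1 and 36.1 CPM in the HA-TRIM15 libraries and 26.0, 29.1 and 30.5 CPM in the EV libraries (0.25 ± 0.068, adjusted p = 0.0175). In each of these 4 genes the treated libraries all lay above the controls, and the groups were apart in either direction for 37.7% of the genes tested. SQLE rose by 0.18 ± 0.04 and MSMO1 by 0.17 ± 0.056. The other 12 enzymes had log2 fold changes between -0.17 for EBP and 0.071 for FDFT1.

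INSIG1 rose with HA-TRIM15 too, with 36.1, 33.6 and 38.2 CPM in the HA-TRIM15 libraries and 26.4, 24.4 and 26.0 CPM in the EV libraries. The groups did not overlap, and the log2 fold change was 0.49 ± 0.059 (SE, adjusted p = 3.5e-05). SREBF2 and INSIG2 rose by 0.13 ± 0.04 and 0.12 ± 0.042, and SCAP changed by -0.16 ± 0.051.

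Among the 7 transport genes 3 were higher and 1 lower, where 22.1% of all genes tested were called. MYLIP was measured at 41.2, 42.1 and 42.7 CPM in the HA-TRIM15 libraries and 34.8, 34.6 and 36.8 CPM in the EV libraries (0.24 ± 0.048, adjusted p = 0.00228), and NPC1 at 116, 113 and 119.8 CPM in the HA-TRIM15 libraries and 99.7, 99.5 and 103 CPM in the EV libraries (0.21 ± 0.037, adjusted p = 0.000988). SCARB1 was the one that fell, with 70.5, 69.3 and 68.5 CPM in the HA-TRIM15 libraries and 82.7, 77.8 and 77.4 CPM in the EV libraries (-0.19 ± 0.041, adjusted p = 0.00418). None of these groups overlapped. ABCA1 rose by 0.13 ± 0.039, and STARD4, SOAT1 and ABCG1 were not called, with values of 0.40, 0.084 and 0.04.

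Of the 22 further pathway genes tested, 2 rose and 3 fell, where 22.1% of all genes tested were called. Among them were RNF139, a sterol-sensing ubiquitin ligase (0.17 ± 0.04), LIPA, the lysosomal acid lipase (0.15 ± 0.037), and NPC2, the partner of NPC1 (-0.17 ± 0.05). Among the markers of other cell types, the hepatocyte gene ALB was counted 0, 0 and 32 times with HA-TRIM15 and 31, 60 and 101 times with EV (-2.11, adjusted p = 0.0345). The fibroblast gene COL1A2 was counted 0, 0 and 4 times against 9, 12 and 24 times, while COL1A1 was not called (11.1 against 11.5 CPM), and the part of these in the results was not tested. Leaving out 1 library ended the calls of CYP51A1 (HA-TRIM15 replicate 1 and each EV library, adjusted p up to 0.13), MSMO1 (each but HA-TRIM15 replicate 1, 0.21), SC5D (HA-TRIM15 replicate 3 and EV replicate 1, 0.0938) and SREBF2 (each EV library, 0.132). The same held for SCAP (0.144) and INSIG2 (0.22), each with every library but HA-TRIM15 replicate 1, and for ABCA1 (HA-TRIM15 replicate 2 and each EV library, 0.141).

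Knockdown of YY2 changed the module most. Of the 18 synthesis enzymes 13 fell, 2 rose and 3 were not called, against 38.1% of all genes called lower and 36.8% called higher (75% in all). The median of the 18 was -0.68 on the log2 scale, against -0.0081 over the 16006 genes tested, and the 13 that fell did so by 0.21 to 1.18. Because 3 of every 4 genes tested were called, the size and direction of the changes say more than the count of calls. Changes were large across the genome too. The median absolute log2 fold change of called genes was 0.81 for the synthesis enzymes and 0.62 over all genes tested. The enzymes that fell span the pathway from acetoacetyl-CoA to the last sterol steps.

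ACAT2, which joins acetyl-CoA units at the start of the pathway, was measured at 22.2, 22.0 and 21.2 CPM in the shYY2 libraries and 44.7, 42.1 and 41.0 CPM in the shControl libraries, a log2 fold change of -0.97 ± 0.054 (SE, adjusted p = 1.39e-10). HMGCS1, the next enzyme, was measured at 44.5, 46.3 and 47.4 CPM in the shYY2 libraries and 104, 99.8 and 103 CPM in the shControl libraries (-1.15 ± 0.038, adjusted p = 2.35e-13). SQLE was measured at 51.3, 55.2 and 53.8 CPM in the shYY2 libraries and 118, 118 and 118 CPM in the shControl libraries (-1.15 ± 0.035, adjusted p = 1.25e-13). CYP51A1 changed by as much, with 7.00, 7.32 and 7.9 CPM in the shYY2 libraries and 16.7, 17.7 and 15.9 CPM in the shControl libraries (-1.18 ± 0.087, adjusted p = 4.71e-09). In all of them every shYY2 library lay below every shControl library (groups were apart, in either direction, for 76.3% of genes), and the ratio of treated to control was between 0.443 for CYP51A1 and 0.511 for ACAT2. The other enzymes that fell were FDPS (-0.90 ± 0.04), IDI1 (-0.83 ± 0.054), EBP (-0.81 ± 0.073), PMVK (-0.79 ± 0.07), NSDHL (-0.76 ± 0.046), MVK (-0.60 ± 0.11), DHCR7, which catalyzes the last step to cholesterol (-0.56 ± 0.037), MSMO1 (-0.48 ± 0.043) and FDFT1 (-0.21 ± 0.034).

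TM7SF2 rose while most of the pathway fell. It was measured at 37.4, 38.1 and 35.5 CPM in the shYY2 libraries and 21.9, 21.4 and 20.1 CPM in the shControl libraries, a rise of 0.81 ± 0.056 (SE, adjusted p = 2.05e-09). MVD, the decarboxylase that makes isopentenyl diphosphate, rose by 0.22 ± 0.052. LSS, HSD17B7 and SC5D were not called (-0.019, 0.13 and 0.0084).

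**Figure D2:**
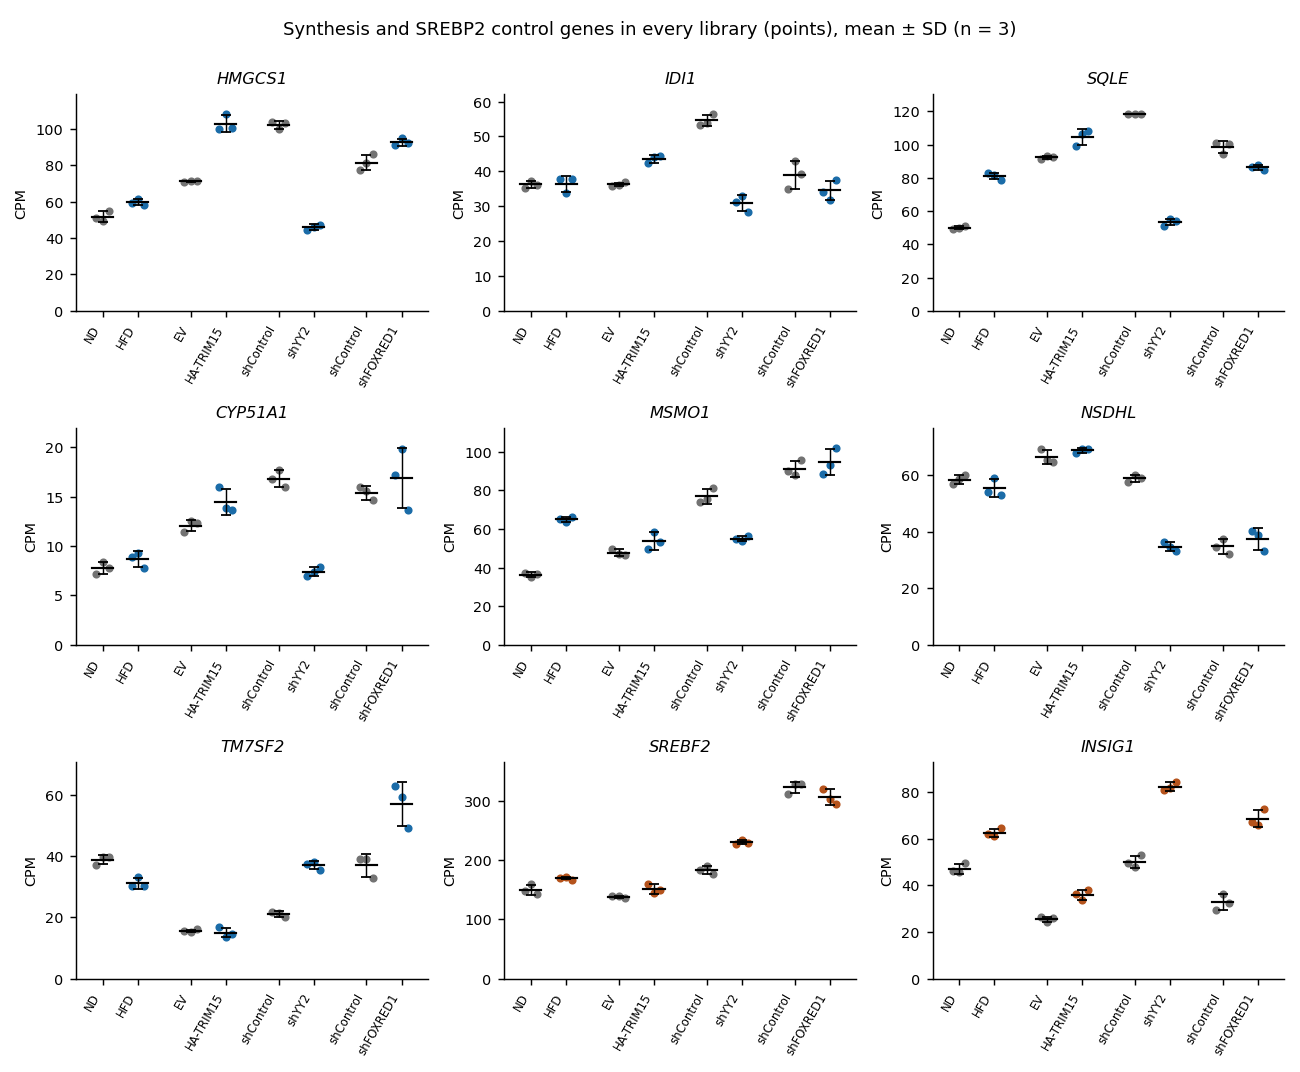
Each panel shows 1 gene in CPM (linear axis from 0) in all 24 libraries, as points, with the mean as a line and the SD as the bar (n = 3 per group), controls in grey. HMGCS1, SQLE and CYP51A1 drop with shYY2 and INSIG1 is above its control in all 4 experiments. CPM was scaled within each experiment, so levels are compared only between the neighboring groups of 1 experiment.

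The control genes did not follow the enzymes. INSIG1, itself a known target of SREBP2, was measured at 80.8, 81.8 and 84.6 CPM in the shYY2 libraries and 49.6, 47.8 and 53.1 CPM in the shControl libraries, a log2 fold change of 0.71 ± 0.043 (SE, adjusted p = 3.25e-10). SREBF2 was measured at 228, 235 and 228 CPM in the shYY2 libraries and 183, 189.5 and 177 CPM in the shControl libraries (0.33 ± 0.032, adjusted p = 1.16e-07). Neither gene's groups overlapped. SCAP rose by 0.10 ± 0.042, a call that was lost without shYY2 replicate 1 or 2 or shControl replicate 1 or 3 (adjusted p up to 0.273), and INSIG2 was not called (-0.075).

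All 7 transport genes were called, 4 higher and 3 lower, where 75% of all genes tested were called. ABCG1, which exports cholesterol to high-density lipoprotein, was measured at 42.4, 43.9 and 42.8 CPM in the shYY2 libraries and 11.3, 12.1 and 10.3 CPM in the shControl libraries. Its log2 fold change of 1.94 ± 0.064 (SE, adjusted p = 2.32e-13) was the widest of any member in any of the 4 experiments. ABCA1, which loads cholesterol on lipid-poor apolipoproteins, was measured at 137, 139.8 and 129.6 CPM in the shYY2 libraries and 71.4, 72.9 and 69.6 CPM in the shControl libraries (0.93 ± 0.037, adjusted p = 2.21e-12), and MYLIP at 81.4, 84.0 and 82.8 CPM in the shYY2 libraries and 41.8, 43.8 and 43.1 CPM in the shControl libraries (0.95 ± 0.038, adjusted p = 2.58e-12). The 3 genes thus rose together, with no overlap of groups. SCARB1 fell, with 41.8, 43.2 and 39.9 CPM in the shYY2 libraries and 86.6, 85.1 and 75.9 CPM in the shControl libraries (-0.99 ± 0.052, adjusted p = 7.65e-11). STARD4, also a known SREBP2 target, changed by -0.63 ± 0.14, SOAT1 by -0.50 ± 0.043 and NPC1 by 0.24 ± 0.034.

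**Figure D3:**
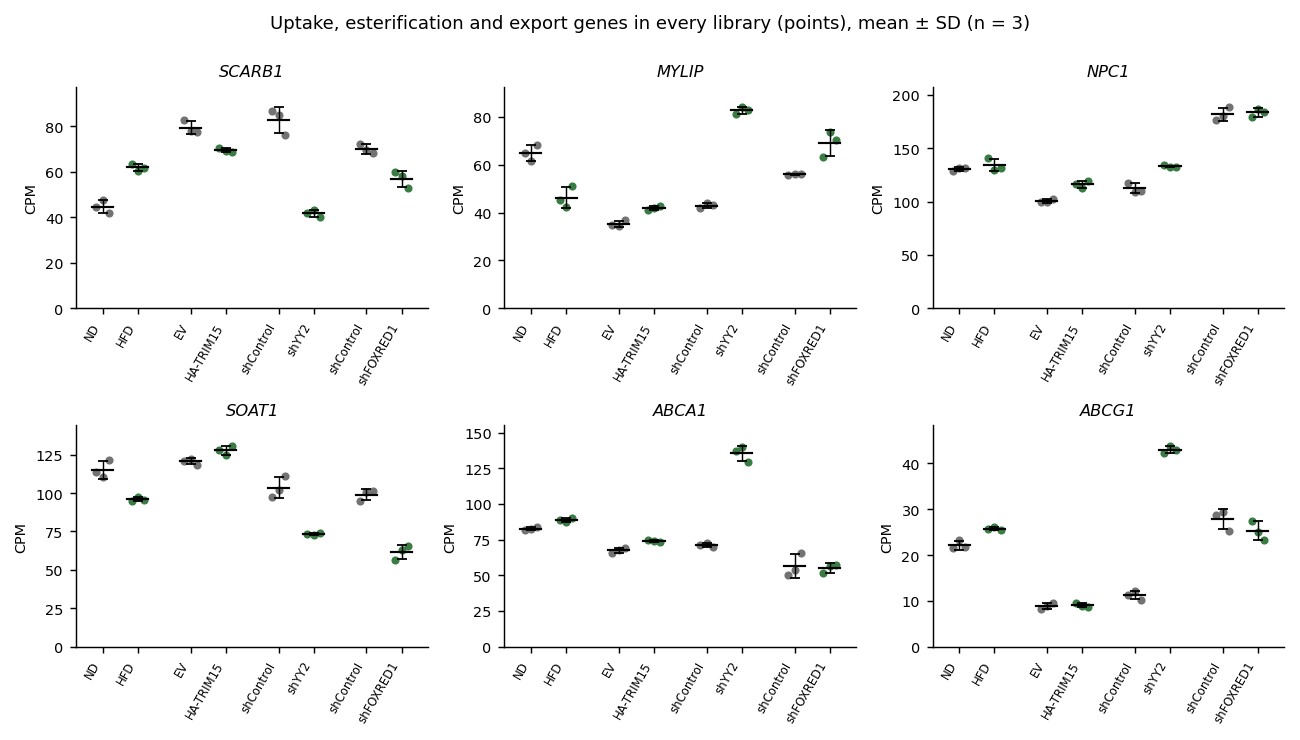
Each panel shows 1 gene in CPM (linear axis from 0) in all 24 libraries, as points, with the mean as a line and the SD as the bar (n = 3 per group), controls in grey. ABCG1, ABCA1 and MYLIP stand above their control with shYY2, and SCARB1 stands below its control in the 3 culture experiments and above it in the HFD xenografts.

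Of the 22 further pathway genes tested with shYY2, 14 rose and 6 fell, where 75% of all genes tested were called. GRAMD1B (1.97 ± 0.18), CYP27A1 (1.70 ± 0.17) and GRAMD1C (1.65 ± 0.078) rose most. In the same libraries the fibroblast list summed to 42.4 to 43.9 CPM with shYY2 and 10.5 to 11.2 CPM with shControl, nearly all of it COL1A1, and the epithelial list to 16833 to 17369.7 and 12379.8 to 13148 CPM. The epithelial markers split, with KRT19 (a mean of 10039 against 6442 CPM), CLDN4 and EPCAM among those higher with shYY2 and KRT8, KRT18, CDH1 and KRT7 lower. The other 5 fibroblast markers were under 1 CPM, and the part of these shifts in the results was not tested.

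Several members share exon bases with another gene in GENCODE 29, and the strand setting of the counting is not given in the sources used here. ACAT2 shares 2996 of its 4299 exon bases with genes on the opposite strand, among them TCP1, which also fell with shYY2 (-0.97, adjusted p = 5.29e-14), and SOD2, which rose (0.31, adjusted p = 1.21e-07). MVK shares 306 bases with MMAB on the opposite strand, which fell with shYY2 too (-0.66, adjusted p = 2.21e-06). CYP51A1 shares 2844 of 3584 bases with a gene model on its own strand, AC000120.2, to which at most 1 read was assigned in any library, and its level is uncertain. FDPS, CYP51A1 and HSD17B7 have named pseudogenes, and of these HSD17B7P2 held up to 177 counts in a library and every other one at most 25.

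The promoters of the synthesis genes were examined because 13 of them fell together with shYY2. RefSeq promoter windows of 300 bases, from 250 before to 50 after a transcription start (assembly GRCh38.p14), were found for 24 of the 29 members, with 30 windows in all. None was found for ACAT2, FDFT1, SQLE, SCARB1 and ABCG1. The 250 bases before the start are printed 5′ to 3′ on the strand of the gene for the 3 synthesis genes with at least 4 NF-Y boxes in a single window, all of which fell, and for SREBF2 and INSIG1, which rose. Capitals mark the NF-Y box CCAAT, read as ATTGG on the opposite strand, and in SREBF2 also a sterol regulatory element.
MVK (chr12:109573544-109573793, plus strand): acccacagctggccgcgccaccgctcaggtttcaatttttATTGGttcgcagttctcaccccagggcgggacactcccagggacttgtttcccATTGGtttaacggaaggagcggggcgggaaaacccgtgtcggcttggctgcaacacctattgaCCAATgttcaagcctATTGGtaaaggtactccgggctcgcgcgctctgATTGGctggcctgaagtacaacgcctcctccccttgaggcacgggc
MSMO1 (chr4:165327419-165327668, plus strand): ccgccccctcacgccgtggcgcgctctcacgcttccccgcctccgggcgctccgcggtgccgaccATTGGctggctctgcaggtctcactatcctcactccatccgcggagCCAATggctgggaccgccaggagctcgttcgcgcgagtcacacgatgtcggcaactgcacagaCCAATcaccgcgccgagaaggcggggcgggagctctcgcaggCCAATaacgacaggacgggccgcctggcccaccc
NSDHL (chrX:152830813-152831062, plus strand): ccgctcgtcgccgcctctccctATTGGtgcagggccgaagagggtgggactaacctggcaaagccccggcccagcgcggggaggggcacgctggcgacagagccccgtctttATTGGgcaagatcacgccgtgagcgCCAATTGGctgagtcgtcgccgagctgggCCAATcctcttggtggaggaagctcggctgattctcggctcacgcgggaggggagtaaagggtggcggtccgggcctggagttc
SREBF2 (chr22:41832855-41833104, plus strand): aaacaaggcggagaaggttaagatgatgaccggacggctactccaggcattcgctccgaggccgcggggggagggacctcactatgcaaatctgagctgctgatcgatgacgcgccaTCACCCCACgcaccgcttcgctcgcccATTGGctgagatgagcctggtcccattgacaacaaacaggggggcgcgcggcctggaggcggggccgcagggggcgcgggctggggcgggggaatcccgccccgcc
INSIG1 (chr7:155297628-155297877, plus strand): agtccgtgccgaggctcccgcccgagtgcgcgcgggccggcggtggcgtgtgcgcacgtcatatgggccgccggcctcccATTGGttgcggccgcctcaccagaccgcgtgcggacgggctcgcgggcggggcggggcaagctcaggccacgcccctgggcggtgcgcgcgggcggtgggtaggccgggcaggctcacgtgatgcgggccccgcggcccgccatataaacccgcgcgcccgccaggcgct

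MVK and NSDHL held 5 NF-Y boxes each and MSMO1 held 4 before the start. In NSDHL a pair of the boxes overlap on opposite strands. At least 1 box was found in 13 of the 15 synthesis genes with a window, in 2 of the 4 control genes and in 3 of the 5 transport genes, while 39.7% of all 27305 gene symbols with a window had one. At least 3 boxes in a single window were found in 7 of the 15 synthesis genes, against 3.92% of all symbols, and in no control or transport gene. Among the synthesis genes that fell with shYY2, 8 of the 10 with a window held a box, and both that rose and all 3 that were not called held one too. PMVK and CYP51A1, which fell, held none.

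The sterol regulatory element in the form TCACNCCAC was found in SREBF2 alone, at 133 bases before the start. It was found in 1.39% of all symbols (1.13% of all 35116 windows). Only this exact form was searched, so the search cannot say whether the other promoters hold elements with different letters. The YY family core CCATNTT was found in 4 of the 24 members with a window (EBP, SC5D, SREBF2 and INSIG2), and in 18.6% of all symbols (15.6% of windows). Motifs were searched on both strands, and a match describes these letters in these windows and no binding.

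The FOXRED1 experiment addresses whether a candidate target of YY2 acts on the same genes, and its knockdown changed fewer members. Of the 18 synthesis genes 2 rose, 3 fell and 13 were not called, against 16.8% of all genes called higher and 19.7% called lower (36.6% in all), with a median log2 fold change of 0.089 beside 0.012 over 15730 genes. Replicate numbers paired the libraries of this experiment by the measure used here, and with the replicate as a block DHCR7 was called as well (adjusted p = 0.00663). Without shFOXRED1 replicate 3, 6853 genes were called in place of 5752, 2 control genes were higher and 1 was lower, and FDPS lost its call.

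TM7SF2 rose, with 62.9, 59.2 and 49.1 CPM in the shFOXRED1 libraries and 39.2, 39.1 and 32.7 CPM in the shControl libraries (0.63 ± 0.094, adjusted p = 5.11e-05). EBP, a sterol isomerase, fell, with 10.4, 12.3 and 10.3 CPM in the shFOXRED1 libraries and 13.5, 15.1 and 14.1 CPM in the shControl libraries (-0.36 ± 0.12, adjusted p = 0.0213). SQLE was measured at 86.7, 87.7 and 84.6 CPM in the shFOXRED1 libraries and 101, 94.2 and 100.1 CPM in the shControl libraries (-0.19 ± 0.059, adjusted p = 0.0183), and FDPS at 35.8, 34.5 and 33.4 CPM in the shFOXRED1 libraries and 39.9, 38.8 and 39.7 CPM in the shControl libraries (-0.19 ± 0.072, adjusted p = 0.047). HMGCS1 rose by 0.19 ± 0.062. The groups did not overlap for any of these 5 genes, as for 46.7% of the genes tested. The 13 enzymes that were not called had log2 fold changes between -0.18 for IDI1 and 0.21 for MVK.

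INSIG1 gave the largest change of a member in this experiment, with 67.2, 65.8 and 72.7 CPM in the shFOXRED1 libraries and 29.7, 36.4 and 32.5 CPM in the shControl libraries. The knockdown libraries were near 2.09 times the controls (1.06 ± 0.08, adjusted p = 2.2e-08). SREBF2, SCAP and INSIG2 were not called (-0.075, 0.14 and -0.12), and SCAP passed with the replicate block (adjusted p = 0.0246).

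SOAT1, which stores cholesterol as ester, fell, with 56.3, 63.0 and 65.5 CPM in the shFOXRED1 libraries and 95.1, 100.4 and 102 CPM in the shControl libraries (-0.69 ± 0.068, adjusted p = 5.19e-07). SCARB1 fell too, with 59.7, 58.0 and 52.7 CPM in the shFOXRED1 libraries and 72.3, 69.5 and 68.2 CPM in the shControl libraries (-0.30 ± 0.068, adjusted p = 0.00201). MYLIP rose, with 63.3, 73.8 and 70.5 CPM in the shFOXRED1 libraries and 55.8, 56.1 and 56.0 CPM in the shControl libraries (0.30 ± 0.07, adjusted p = 0.00229). Each of these groups was apart from its control. NPC1, STARD4, ABCA1 and ABCG1 were not called, with values from -0.14 to 0.31, and STARD4, the highest of these, passed with the block (adjusted p = 0.0293).

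Of 20 further pathway genes tested, 8 rose and 4 fell with shFOXRED1, where 36.6% of all genes tested were called. LBR, a sterol reductase of the nuclear envelope that catalyzes the same step as TM7SF2, fell from 186, 183 and 193 CPM to 89.6, 96.2 and 102 CPM (-0.97 ± 0.06). TMEM97, a sterol-responsive membrane protein, changed by -0.75 ± 0.066, CYP27A1 by 0.78 ± 0.14 and GRAMD1A by 0.62 ± 0.06. COL1A1 stood at a mean of 40.3 CPM with shFOXRED1 and 24.6 CPM with its shControl, and its part was not tested. Leaving out 1 library ended the calls of FDPS (any of the 6, adjusted p up to 0.126), SQLE (shFOXRED1 replicate 1, shControl replicates 1 and 3, 0.0815), EBP (shFOXRED1 replicate 1, shControl replicate 2, 0.0937) and HMGCS1 (shFOXRED1 replicate 2, shControl replicates 1 and 2, 0.144). Those fits had no replicate block. With the block and all 6 libraries, edgeR's adjusted p was 0.0227 for FDPS, 0.00298 for SQLE, 0.00986 for EBP and 0.00341 for HMGCS1.

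The effects of both knockdowns were then compared in a fit of their 12 libraries, testing the shYY2 effect minus the shFOXRED1 effect. The effects differed for 21 of the 29 members, against 54.4% of the 17146 genes tested (26.4% with the shYY2 effect higher and 28% with it lower). For 16 of the 21 the shYY2 effect was the lower one, and for 5 (SREBF2, MYLIP, NPC1, ABCA1 and ABCG1) it was the higher one. The widest gap among the enzymes was that of HMGCS1, which fell with shYY2 and rose with shFOXRED1 (difference -1.34 ± 0.07, adjusted p = 7.6e-13). ABCG1 gave the widest of all (2.08 ± 0.12, adjusted p = 2.01e-12). INSIG1 rose with both and less with shYY2 (-0.35 ± 0.092, adjusted p = 0.00267). For 8 members no difference was called: MVD, LSS, TM7SF2, HSD17B7, SC5D, SCAP, INSIG2 and SOAT1, the last at an adjusted p of 0.0534. With DESeq2 size factors, either other filter, the replicate block or the DESeq2 Wald test, 22 members passed in place of 21. TM7SF2, with a difference of 0.18 ± 0.12, and SOAT1, with 0.19 ± 0.081, were themselves called with both knockdowns in the same direction.

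**Figure D4:**
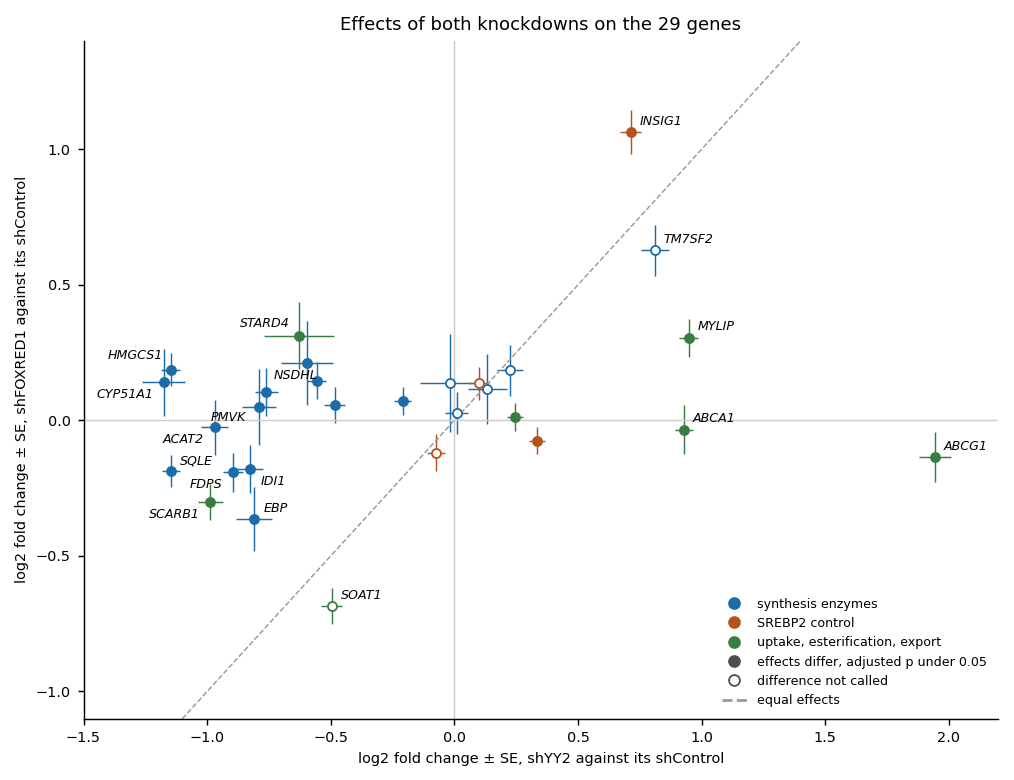
Each point is 1 of the 29 genes, with the log2 fold change of shYY2 against its control on the x axis and that of shFOXRED1 against its control on the y axis, bars being standard errors (n = 3 and 3 libraries in each experiment). Filled points are the 21 genes whose effects differed. The synthesis enzymes that fell with shYY2 spread along the x axis and lie between -0.36 (EBP) and 0.21 (MVK) on the y axis. Of these, HMGCS1, FDPS, SQLE and EBP were called with shFOXRED1. TM7SF2 and SOAT1 lie near the dashed line of equal effects.

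The 4 experiments share no control libraries. INSIG1 was the one member that was higher in all 4, a pattern found in 0.613% of the 14519 genes tested in every experiment, and no member was lower in all 4 (0.262% of genes). HMGCS1, SQLE, INSIG1, SCARB1 and MYLIP were called in each experiment (6.79% of genes). The shFOXRED1 calls of HMGCS1 and SQLE did not hold without some single libraries. Each of the other 24 members was not called in at least 1 experiment, and no member went without a call (9.43% of genes). SCARB1 was higher with HFD and lower in the 3 culture experiments, and MYLIP was the reverse. SOAT1 was lower in 3 experiments and was not called with HA-TRIM15. The share of all genes with the patterns of SCARB1, MYLIP and SOAT1 was not counted.

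The study asked whether TRIM15 acts through YY2 protein. The paper reports that TRIM15 knockdown raised YY2 protein and left YY2 mRNA unchanged. It also reports experiments on binding of TRIM15 to YY2, proteasome inhibition, YY2 half-life, loss of the RING domain and K48-linked ubiquitination. From these it proposes degradation of the protein. Here YY2 mRNA was not called with HA-TRIM15, at 1.56, 1.24 and 1.77 CPM against 1.63, 1.32 and 1.24 CPM with EV. These values rest on 19 to 33 counts per library. Protein was not measured in these libraries, so whether the changes below pass through YY2 was not tested. HMGCS1, IDI1, SQLE, CYP51A1 and MSMO1 rose with HA-TRIM15 and fell with shYY2, a combination seen in 5.88% of genes. SCAP fell with HA-TRIM15 and rose with shYY2 (3.35% of genes). The HA-TRIM15 calls of CYP51A1, MSMO1 and SCAP and the shYY2 call of SCAP were each lost when certain single libraries were left out. Another 6 members were called in the same direction in both experiments. SREBF2, INSIG1, MYLIP, NPC1 and ABCA1 rose in both (5.29% of genes), and SCARB1 fell in both (4.99%). The HA-TRIM15 calls of SREBF2 and ABCA1 were lost in the same way. HMGCS1, SQLE and MSMO1 were also higher with HFD, and 3.27% of genes had all 3 of these calls. FDPS, SQLE and EBP fell with both knockdowns, with SCARB1 and SOAT1 (5 members, 13.1% of genes). TM7SF2, INSIG1 and MYLIP rose with both (3 members, 9.17% of genes). The shFOXRED1 calls of FDPS, SQLE and EBP also depended on single libraries.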

How the data were processed

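RNA was sequenced from 24 libraries, 3 per group in 8 groups, and total counts of 14299807 to 45994561 per library set the precision. The authors deposited raw read counts per Ensembl gene, 61860 rows a table, for each experiment; the labels and the paper differ on the extraction and library kits, and how mouse reads were separated in the xenografts and the strand setting of the counting are not given in the sources used here. The submitters' processing notes name the builds hg38 and mm10 without a role. Of the identifiers, 99.8% had a symbol.

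Each experiment was fitted on its own in edgeR 4.0.16 (R 4.3.3), with TMM scaling, filterByExpr (minimum count 10, minimum total 15), the quasi-likelihood test and Benjamini-Hochberg adjustment over all genes tested; a gene was called at an adjusted p under 0.05. Each SE was taken from the fold change and the F statistic. CPM used the TMM-scaled library size. The knockdown effects were compared by an interaction term in a fit of both tables. Alternatives were DESeq2 size factors, the DESeq2 1.42.0 Wald test, no filter, a stricter filter (10 or more counts in each library), a block for the replicate number, and leaving out each library in turn. The scripts were tested on simulated data.

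Replicate numbers were checked by the correlation of deviations from the group mean. Over genes with a mean count of at least 100, the shFOXRED1 pairs gave 0.176, 0.118 and 0.34, all above 0.1. They were taken as paired, although over all genes they gave 0.032, 0.012 and 0.078. The values printed for shFOXRED1 still come from the fit without a block, except where the block is named. The other experiments each had a pair at or below 0.1. The labels do not say what a number marks.

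The members and lists were chosen with earlier results of these data known. The text gives values per library for the 8 members called with the largest change in each comparison, and also, chosen after their values were seen, for TM7SF2, INSIG1 and SREBF2 with shYY2 and for LBR with shFOXRED1. It names up to 4 further pathway genes by the same rule; some genes are not reported here.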

Additional observations from a re-analysis of the deposited data

Results flagged for a closer look

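For 21 members the effect of shYY2 differed from that of shFOXRED1 in the interaction test (edgeR, adjusted p under 0.05), and the values are the log2 effect of shYY2 minus that of shFOXRED1. Among the enzymes, the difference was -0.94 for ACAT2, -1.34 for HMGCS1, -0.81 for MVK, -0.84 for PMVK, -0.65 for IDI1, -0.71 for FDPS, -0.28 for FDFT1 and -0.96 for SQLE. It was -1.32 for CYP51A1, -0.54 for MSMO1, -0.87 for NSDHL, -0.45 for EBP and -0.71 for DHCR7. In the control group it was 0.41 for SREBF2 and -0.35 for INSIG1. In the transport group it was -0.69 for SCARB1, 0.64 for MYLIP, 0.23 for NPC1, -0.94 for STARD4, 0.96 for ABCA1 and 2.08 for ABCG1. Each knockdown had its own control cells, so a difference between the experiments beyond the hairpin cannot be told apart from it.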

How the results depend on the processing

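Of 69 calls of members in the 4 comparisons, 50 were kept under every alternative and 19 were lost under at least 1, and no fold change turned its direction. With HFD, 1 control gene was lower with DESeq2 size factors, with no filter and with the DESeq2 Wald test, and 3 synthesis genes were lower with the Wald test. With the replicate block, 1 control gene was lower with shYY2 (INSIG2, adjusted p = 0.0479), and 2 control and 2 transport genes were higher with shFOXRED1 (SCAP and STARD4 added); the block changed no other call of a member except that of DHCR7 with shFOXRED1. Leaving out 1 library gave, with HFD, 3 to 5 synthesis genes lower, 1 to 2 control genes lower and 2 to 4 transport genes higher. With HA-TRIM15 it gave 3 to 5 synthesis genes higher and 0 to 1 lower, 1 to 3 control genes higher and 0 to 1 lower, and 2034 to 5100 genes called in all. With shFOXRED1 it gave 1 to 3 synthesis genes higher and 0 to 3 lower, 1 to 2 control genes higher and 0 to 1 lower, and 1 to 2 transport genes higher. The cause was not tested. Depth limits STARD4 (51 counts at the lowest), LSS and MVK most.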

Other observations

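The shControl cells of both knockdown experiments stood at different levels for several members. SREBF2 was measured at 24.2 ± 0.86 CPM per kb of exon (SD, n = 3) in the shControl cells of the YY2 experiment and at 42.7 ± 1.3 in those of the FOXRED1 experiment. PMVK stood at 18.5 ± 0.51 and 8.62 ± 0.84 in the same order. NSDHL stood at 29.5 ± 0.69 and 17.4 ± 1.4 in the same order. STARD4 stood at 0.952 ± 0.077 and 2.44 ± 0.22 in the same order. These genes were picked after their values were seen, the tables were scaled separately, and the differences were not tested.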
